A study of Mus musculus with 6 samples.

Results

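The 9 genes described here encode matrix metalloproteinases: Mmp2, Mmp3, Mmp8, Mmp9, Mmp10, Mmp11, Mmp12, Mmp13 and Mmp14. They were found on mouse expression arrays through every probe set whose platform annotation names only 1 of these genes. This gave 12 probe sets of 22626, once the array's own control probe sets were set aside, and 9 genes of 12393 named alone by a probe set. Mmp2, Mmp9 and Mmp14 have 2 probe sets each, and the one with the higher mean stands for the gene unless both are given.

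The skin came from C57BL/6 mice that carried a subcutaneous pump for 7 days. The pump released PBS as the control, IL-13, TSLP or TGF-beta. There were 5 groups on 6 arrays: skin from the pump outlet with PBS (PBS local), abdominal skin far from the outlet with PBS (PBS distal), and outlet skin with IL-13, with TSLP and with TGF-beta, the last from 2 mice called mouse 1 and mouse 2. All animals carried a pump, so no array shows skin without implantation. IL-13 and TSLP are cytokines of allergic inflammation, and TGF-beta is a cytokine of fibrosis and wound repair. Whether both PBS pieces were taken from 1 animal is not stated, and neither are the dose, sex and age. Groups with 1 array have no replicate check, and in whole skin fewer cells of a type and less RNA per cell cannot be told apart.

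The arrays were close to each other in overall signal. Their trimmed means were all close to 500.2, as scaling of arrays to a common target would give, so they are no measure of quality. Their median signals lay between 160.2 and 171, and log2 signals of array pairs correlated at 0.971 to 0.989 across probe sets. The 3′ to 5′ ratio of Actb, a measure of RNA integrity, lay between 1.13 and 1.25. The keratinocyte markers Krt5 and Krt14 were bright on all arrays, with Krt5 between 6031 and 9502 signal units, and skeletal muscle markers had a summed signal of 76980 to 112092, so markers of both epidermis and muscle were present. Hair follicle markers summed to 44125 in TGF-beta mouse 2 and to 425 to 3234 on the other 5 arrays. Transcripts of the exocrine pancreas, which are not skin genes, summed to 4994 in PBS local, 906 in PBS distal, 16806 with IL-13, 14278 with TSLP, 2057 in TGF-beta mouse 1 and 11792 in mouse 2. The part of these differences in the metalloproteinase values was not tested.

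Matrix metalloproteinases are zinc-dependent enzymes that cut collagens, elastin, proteoglycans and other proteins of the extracellular matrix. They are made as inactive precursors whose propeptide must be removed, by furin-like convertases inside the cell or by plasmin and other metalloproteinases outside it, and the tissue inhibitors of metalloproteinases (TIMPs) block the active enzymes. In resting skin most of the secreted members are made at a low level, and several are made by fibroblasts, keratinocytes, macrophages and neutrophils during wound repair and inflammation. The activator protein 1 (AP-1) family of transcription factors, made of Fos and Jun proteins, is known to bind the promoters of several collagenase and stromelysin genes.

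RefSeq promoter windows on build GRCm38.p6, running from 250 bases before to 50 bases after a transcript start, were matched by symbol for 7 of the 9 genes, in 8 windows since Mmp12 has 2 starts. Mmp2 and Mmp9 had no entry. The windows were searched on both strands for the AP-1 letters TGANTCA, a motif chosen after the sequences had been seen. It was found in the windows of Mmp13, Mmp12, Mmp3 and Mmp10, which lie in a cluster on chromosome 9. Whether the motif has a part in the signals of these genes was not tested. Those 4 upstream stretches are printed below, from 250 bases before the start up to the start. The AP-1 letters are in capitals and the remainder in lower case.

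Mmp13, chr9:7272264-7272513, plus strand: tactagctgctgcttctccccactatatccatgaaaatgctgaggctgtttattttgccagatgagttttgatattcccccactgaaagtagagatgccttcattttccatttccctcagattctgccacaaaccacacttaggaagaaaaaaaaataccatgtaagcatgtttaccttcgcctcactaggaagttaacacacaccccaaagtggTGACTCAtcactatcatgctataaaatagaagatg
Mmp12, chr9:7347124-7347373, plus strand: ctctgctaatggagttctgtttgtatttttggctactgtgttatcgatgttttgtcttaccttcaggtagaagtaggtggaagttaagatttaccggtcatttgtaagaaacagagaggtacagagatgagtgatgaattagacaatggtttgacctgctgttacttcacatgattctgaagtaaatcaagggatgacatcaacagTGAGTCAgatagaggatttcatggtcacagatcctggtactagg
Mmp3, chr9:7445572-7445821, plus strand: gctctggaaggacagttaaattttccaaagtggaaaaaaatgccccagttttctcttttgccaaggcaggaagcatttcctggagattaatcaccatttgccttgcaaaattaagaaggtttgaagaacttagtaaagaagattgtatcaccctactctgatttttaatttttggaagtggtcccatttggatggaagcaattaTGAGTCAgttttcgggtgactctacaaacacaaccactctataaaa
Mmp10, chr9:7502092-7502341, plus strand: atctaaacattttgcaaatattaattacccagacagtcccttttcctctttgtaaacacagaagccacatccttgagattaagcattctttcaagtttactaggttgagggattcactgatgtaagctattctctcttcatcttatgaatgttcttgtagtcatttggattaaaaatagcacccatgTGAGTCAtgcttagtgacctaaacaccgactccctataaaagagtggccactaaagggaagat

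The capitals begin 35 bases before the start in Mmp13, 44 in Mmp12, 46 in Mmp3 and 63 in Mmp10. Mmp13 has the letters TGACTCA and the other genes have TGAGTCA. The other Mmp12 window and those of Mmp8, Mmp11 and Mmp14 did not hold these letters. Of all 32851 promoter windows of the same length, 7.81% held the motif. These matches describe letters in a window and do not show that a factor binds there. The form bound by STAT6, the factor downstream of IL-13 (TTC, then 4 bases of any kind, then GAA), was in none of the 8 windows and in 6.95% of all windows. The form bound by STAT5 (TTC, 3 bases of any kind, GAA) was also in none of the 8, and in 8.30% of all windows. The SMAD letters CAGACA, which are linked to TGF-beta signalling, were in the windows of Mmp12 (the start without AP-1 letters), Mmp10 and Mmp8 and in 21.0% of all windows. The ETS letters AGGAAG were in the windows of Mmp13, Mmp12 (again the start without AP-1 letters), Mmp3, Mmp8 and Mmp14 and in 35.4% of all windows. The TATA box letters TATAAA were in those of Mmp13, Mmp12 (the start with AP-1 letters), Mmp3, Mmp10 and Mmp8 and in 13.6% of all windows. In Mmp12 these letters began after the start, at base 5 counted from it. In Mmp8 they were on the strand opposite to the gene and began 3 bases before the start.

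Signals are linear intensities after scaling of the arrays to a common trimmed mean. Differences are given on the log2 scale of signal plus 27.4, an offset at the 25th percentile of all signals that dampens differences between dim values, so a difference of 1 is called 2-fold. A gene is called dim on an array where its signal is under 165, the median of all signals. Mmp2, Mmp3 and Mmp14 were above that level on all 6 arrays. Mmp9, Mmp11, Mmp12 and Mmp13 were above it on 1 to 5 arrays, and Mmp8 and Mmp10 on none. Differences in signal are taken between arrays for the same probe set only. Signals of different probe sets are added up in the marker sums and ordered to choose the one that stands for a gene.

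Among the collagenases, which open the triple helix of fibrillar collagens, Mmp13 was the gene with the widest range of all 9. Its signal was 15.8 in PBS local, 1.11 in PBS distal, 692 with IL-13, 112 with TSLP, 87.0 in TGF-beta mouse 1 and 151 in mouse 2. Only the IL-13 array was above the median signal. The difference from PBS local was 4.06 with IL-13, 1.69 with TSLP, 1.40 in mouse 1 and 2.04 in mouse 2. The gap between the TGF-beta mice was 0.64, and TSLP lay between them. IL-13 was 2.37 above TSLP. In the order of the 6 arrays, 2 of the 5 steps between neighbours were larger than the gap between the mice, namely from PBS local up to mouse 1 at 1.40 and from mouse 2 up to IL-13 at 2.01.

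Mmp8, the neutrophil collagenase, was dim throughout. Its signal was 39.4 in PBS local, 17.2 in PBS distal, 54.1 with IL-13, 46.6 with TSLP, 37.0 in TGF-beta mouse 1 and 30.9 in mouse 2. The differences from PBS local ran from -0.58 in PBS distal to 0.29 with IL-13, and the gap between the mice was 0.14.

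Mmp3, stromelysin 1, which cuts proteoglycans and other metalloproteinase precursors, was higher on all 4 cytokine arrays than on either PBS array. Its signal was 589.8 in PBS local, 435 in PBS distal, 1526 with IL-13, 2203 with TSLP, 2431 in TGF-beta mouse 1 and 2252 in mouse 2. The differences from PBS local were 1.33 with IL-13, 1.85 with TSLP, 1.99 in mouse 1 and 1.88 in mouse 2. The gap between the mice was 0.11, and 3 of the 5 steps between neighbouring arrays were larger than it. The TSLP array lay 0.03 below mouse 2 and IL-13 lay 0.52 below TSLP.

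Mmp3 was also read in limma, a linear model fitted over all probe sets in which only the 2 TGF-beta mice give a measured spread and each lone array is assumed to vary like them. The difference between TGF-beta and PBS local was 1.94 ± 0.177 (SE), with a 95% interval of 1.48 to 2.40, and its adjusted p by limma with Benjamini-Hochberg adjustment was 0.861. It was therefore not called. The intervals are not adjusted for the number of probe sets. In TGF-beta against TSLP the difference was 0.09, with an interval of -0.38 to 0.55, and against IL-13 it was 0.61, with an interval of 0.15 to 1.07. Their limma adjusted p-values were 0.926 and 1.00.

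Mmp10, stromelysin 2, had a signal of 1.41 in PBS local, 8.03 in PBS distal, 46.7 with IL-13, 22.5 with TSLP, 6.20 in TGF-beta mouse 1 and 28.5 in mouse 2. All these values are dim. The IL-13 difference from PBS local was 1.36, but the gap between the TGF-beta mice was 0.73 and none of the 5 steps between neighbouring arrays was larger than it.

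Mmp11, stromelysin 3, is unusual among secreted members in that furin-like enzymes remove its propeptide inside the cell. Its signal was 88.6 in PBS local, 63.6 in PBS distal, 125 with IL-13, 107 with TSLP, 198 in TGF-beta mouse 1 and 214 in mouse 2. Only the TGF-beta mice were above the median signal, and they were the highest arrays for this gene. The difference from PBS local was 0.96 in mouse 1, 1.06 in mouse 2, 0.40 with IL-13 and 0.22 with TSLP. The mean of the mice was 1.01 above PBS local, with a limma interval of -0.05 to 2.07, and 0.80 above TSLP, with an interval of -0.25 to 1.84. The gap between the mice was 0.10, and 4 of the 5 steps between neighbouring arrays were larger.

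Mmp12, macrophage elastase, cuts elastin. Its signal was 23.4 in PBS local, 61.0 in PBS distal, 731 with IL-13, 324 with TSLP, 139 in TGF-beta mouse 1 and 53.0 in mouse 2. The IL-13 and TSLP arrays were the only ones above the median signal. The difference from PBS local was 3.90 with IL-13, 2.79 with TSLP, 1.71 in mouse 1 and 0.66 in mouse 2. The mice differed by 1.05, the widest gap of the 9 genes, and mouse 2 lay below PBS distal. IL-13 was 1.11 above TSLP, 2.19 above mouse 1 and 3.24 above mouse 2. The limma difference of TGF-beta from IL-13 was -2.71, with an interval of -4.19 to -1.24 and an adjusted p of 1.00, and from TSLP it was -1.60, with an interval of -3.06 to -0.15 and an adjusted p of 0.581.

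Mmp9, the gelatinase of neutrophils, macrophages and migrating keratinocytes, was highest on the IL-13 array by both probe sets. The brighter probe set gave 157 in PBS local, 172 in PBS distal, 463 with IL-13, 237 with TSLP, 182 in TGF-beta mouse 1 and 166 in mouse 2. The other gave 86.2, 100.5, 200.0, 156, 120.2 and 97.2 in that order. IL-13 was 1.41 above PBS local by the brighter probe set and 1.00 by the other, and TSLP was 0.52 and 0.69 above it. The TGF-beta mice differed from PBS local by 0.19 and 0.07 by the brighter probe set, with a limma interval of -0.49 to 0.75 for their mean. The probe sets gave unequal sizes for IL-13 over TSLP, 0.89 against 0.31. The limma difference of TGF-beta from IL-13 was -1.28 by the brighter probe set, with an interval of -1.92 to -0.65, and -0.75 by the other, with an interval of -1.89 to 0.40. Neither was called, with adjusted p-values of 1.00 by limma.

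Mmp2, the gelatinase made by fibroblasts, was bright everywhere and varied little at the outlet. Its signal was 3611 in PBS local, 2258 in PBS distal, 4019.7 with IL-13, 4985 with TSLP, 5079 in TGF-beta mouse 1 and 3669.8 in mouse 2. The differences from PBS local were 0.15 with IL-13, 0.46 with TSLP, 0.49 in mouse 1 and 0.02 in mouse 2, and the mice differed by 0.47. The limma interval for TGF-beta minus PBS local was -0.37 to 0.88. The other probe set kept the same order of arrays. PBS distal was the only array separated from its neighbour by more than the gap between the mice, at 0.67 below PBS local.

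Mmp14, the membrane-bound enzyme that activates the Mmp2 precursor at the cell surface, gave 2849.9 in PBS local, 1727 in PBS distal, 3152 with IL-13, 3227 with TSLP, 4098 in TGF-beta mouse 1 and 4018 in mouse 2. By this brighter probe set the mice were 0.52 and 0.49 above PBS local, 0.03 apart, and higher than every other array. By the other, TSLP at 234 lay between mouse 1 at 236 and mouse 2 at 229. The limma difference of TGF-beta from PBS local was 0.51, with an interval of 0.09 to 0.92, and the dimmer probe set gave 0.37, with an interval of -0.32 to 1.06. The adjusted p by limma was 0.861 for the first. IL-13 and TSLP were 0.14 and 0.18 above PBS local and within 0.03 of each other by the brighter probe set. The dimmer one gave 0.00 with IL-13 and 0.38 with TSLP.

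**Figure D1:**
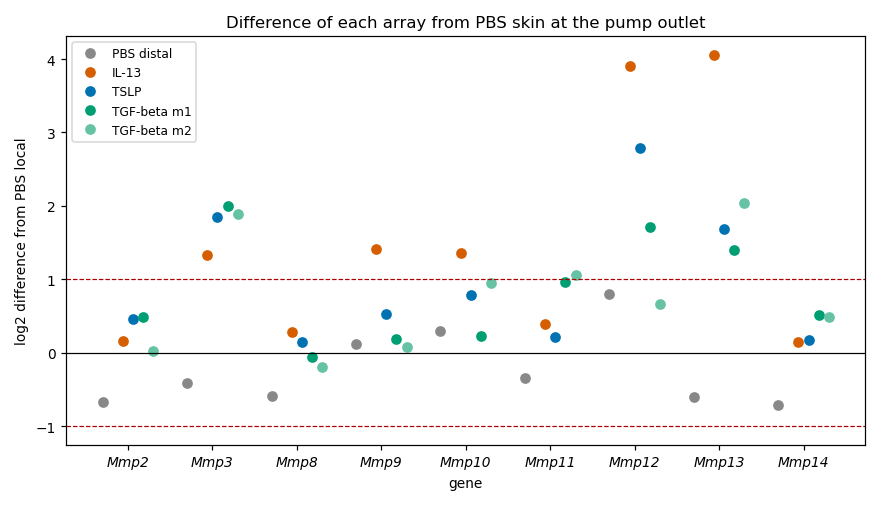
Differences from PBS local on the log2 scale of signal plus offset, for each gene and array (m1 and m2 are TGF-beta mouse 1 and mouse 2), with dashed lines at -1 and 1 that mark a 2-fold change. Mmp12 and Mmp13 reach 3.90 and 4.06 with IL-13, Mmp3 reaches 1.85 to 1.99 with TSLP and in the TGF-beta mice, and PBS distal lies between -0.71 and 0.80.

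Counted over the 9 genes, IL-13 skin had 5 at least 2-fold above PBS local, Mmp3, Mmp9, Mmp10, Mmp12 and Mmp13, and none 2-fold below. Of all genes tested, 1.12% were at least 2-fold higher with IL-13 and 0.41% at least 2-fold lower. Mmp10 is dim on both arrays, and Mmp9, Mmp12 and Mmp13 passed the brightness rule only through the IL-13 array, where they were high. The median difference of the 9 genes, dim ones included, was 1.33, against -0.07 over all genes that passed the brightness rule. Among 7562 genes ranked from the highest difference, Mmp13 was at place 4 and Mmp12 at place 5, with Mmp9 at 43 and Mmp3 at 51.

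TSLP skin had 3 of the 9 genes at least 2-fold above PBS local, Mmp3, Mmp12 and Mmp13, beside 0.998% of all genes, and none 2-fold below, beside 0.447%. Mmp13 was dim on both arrays, and Mmp12 passed the brightness rule only through the TSLP array. The median of the 9, dim ones included, was 0.52, against -0.01 over all genes that passed the brightness rule. Mmp12 stood at place 4 and Mmp3 at place 15 among 7614 genes.

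TGF-beta skin had 2 of the 9 genes at least 2-fold above PBS local in both mice, Mmp3 and Mmp13, beside 0.181% of all genes, and none lower, beside 0.155%. Mmp3 was at place 34 among 7741 genes by the mean of the mice, Mmp11 at 80 and Mmp14 at 267. Mmp11 passed the brightness rule only through the TGF-beta arrays, where it was high. Mmp13 is dim on all 3 arrays of this comparison, so Mmp3 was the single gene of the 9 that passed both the size and the brightness rule. The median of the 9, dim ones included, was 0.59, which is the value of the dim Mmp10, against -0.05 over all genes that passed the brightness rule. limma called 0 of 12034 probe sets in this comparison, with 629 at an unadjusted p under 0.05. Each cytokine is compared with the same PBS local array, so a value that is odd on that array moves all these differences together.

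When every lone array was assumed to vary as the TGF-beta pair did, limma called 0 of 11764 probe sets for IL-13 against PBS local, with 486 at an unadjusted p under 0.05. It called 0 of 11838 for TSLP against PBS local, with 452 at an unadjusted p under 0.05. With quantile normalization it called 2 probe sets higher for IL-13 and 1 lower for TSLP, none of them a metalloproteinase. The adjusted p was 0.816 for Mmp13 with IL-13 and 0.865 for Mmp12 with TSLP.

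**Figure D2:**
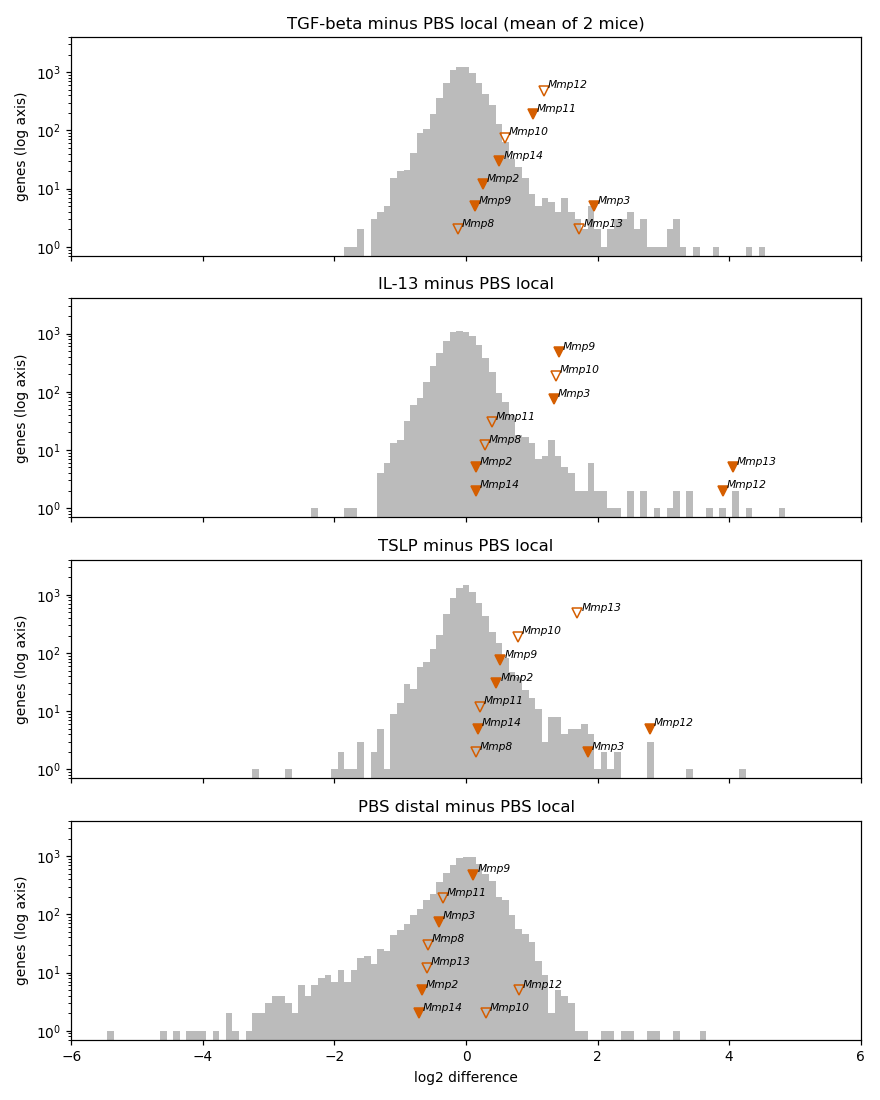
Histograms of the log2 difference over all genes tested, in 4 panels for TGF-beta (mean of the mice), IL-13, TSLP and PBS distal against PBS local, with the number of genes on a log axis. Triangles mark the 9 genes, filled where the gene passed the brightness rule and open where it was dim, at heights with no meaning, and Mmp12 and Mmp13 lie far into the right tail for IL-13.

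The cytokines were also compared with each other, without PBS local. IL-13 was at least 2-fold above TSLP for 2 of the 9 genes, Mmp12 and Mmp13, beside 0.556% of all genes, and no member was 2-fold lower, beside 0.82%. Among 7558 genes Mmp13 stood at place 10 and Mmp12 at 33, while Mmp3 was lower with IL-13 and stood at place 7075. Mmp13 passed the brightness rule here only through the IL-13 array. Both TGF-beta mice were at least 2-fold below IL-13 for 3 of the 9 genes, Mmp9, Mmp12 and Mmp13, beside 0.43% of all genes, and below TSLP for Mmp12 alone, beside 0.515%. By the other Mmp9 probe set IL-13 was 0.62 above mouse 1 and 0.87 above mouse 2, short of 2-fold. Mmp12 and Mmp13 passed the brightness rule against IL-13 only through the IL-13 array, and Mmp12 against TSLP only through the TSLP array. No member was 2-fold higher in both mice than with IL-13 or TSLP, beside 0.0261% and 0.167% of all genes. The limma fit called 0 of 11919 probe sets for TGF-beta against IL-13, with 270 at an unadjusted p under 0.05, and 0 of 12064 against TSLP, with 985.

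PBS distal had the lowest signal of the 6 arrays for 6 of the 9 genes, namely Mmp2, Mmp3, Mmp8, Mmp11, Mmp13 and Mmp14. The share was 24.9% of the 7945 genes that passed the brightness rule on at least 1 array, which Mmp8 did not. Mmp8, Mmp11 and Mmp13 were dim on both PBS arrays. No member was 2-fold below PBS local, beside 3.51% of all genes, and none 2-fold above, beside 0.788%. The differences were -0.71 for Mmp14, -0.67 for Mmp2, -0.60 for Mmp13 and -0.58 for Mmp8, and 0.80 for Mmp12, where both arrays were dim. limma called 3 of 11882 probe sets here (0.0252%), all lower in PBS distal and none of them a metalloproteinase. With quantile normalization it called 7 higher and 74 lower, and without the filter or without the intensity trend it called 0. Site and distance from the pump differ together in this pair of arrays and cannot be told apart.

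When PBS distal replaced PBS local, a comparison added after the data were seen, TGF-beta skin had 4 genes at least 2-fold higher in both mice, Mmp3, Mmp11, Mmp13 and Mmp14, beside 2.57% of all genes. IL-13 skin had 5 (4.64% of all genes) and TSLP skin 4 (5.04%), the latter with Mmp2. Those shares are of genes past the brightness rule, which 3, 4 and 3 of these members passed for TGF-beta, IL-13 and TSLP. Mmp13 was dim in the TGF-beta and TSLP comparisons and Mmp10 in that with IL-13. The counts used the brighter probe set where a gene has 2. By the other, Mmp14 was 0.97 and 0.93 above PBS distal in mouse 1 and mouse 2. Mmp9 was 0.83 above it with IL-13 and Mmp2 0.89 with TSLP, so none of these reached 2-fold. Mmp11 with TGF-beta, Mmp12 with IL-13 and TSLP, and Mmp13 with IL-13 passed only through the cytokine arrays, where they were high. No member was 2-fold lower than in PBS distal, beside 1.22% of all genes for TGF-beta, 2.86% for IL-13 and 1.4% for TSLP. For TGF-beta against PBS distal limma called 41 of 12108 probe sets, or 0.339%, of which 36 were higher and 5 lower. This count rested on the settings: it was 213 higher and 78 lower with quantile normalization, 1 with the offset at the median, and 0 without the filter or without the intensity trend. Mmp3 was among the 41, with a difference of 2.36 ± 0.176 (SE), a 95% interval of 1.90 to 2.82 and an adjusted p of 0.0398. The range over alternative settings of its limma adjusted p was 0.00537 to 0.241, so the call depended on the settings. Mmp14 was 1.22 higher with a limma adjusted p of 0.0903 and a range of 0.0257 to 0.264, and quantile normalization was the setting that called it. The limma values were 0.93 for Mmp2, with an adjusted p of 0.185, and 1.36 for Mmp11, with 0.207. By its dimmer probe set Mmp14 was 0.95 higher, and no setting that tested this probe set called it. Outlet skin and abdominal skin differ here as well as the cytokine, and the parts cannot be told apart.

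Mmp13, Mmp12, Mmp3, Mmp10 and Mmp8 lie in this order in a cluster on chromosome 9, with Mmp1b between Mmp12 and Mmp3 and Mmp1a between Mmp3 and Mmp10, and with Mmp20 and Mmp7 beyond Mmp8. The other 4 genes lie elsewhere, Mmp9 on chromosome 2, Mmp2 on 8, Mmp11 on 10 and Mmp14 on 14. The signal of Mmp1b reached 8.19 at most, that of Mmp1a 11.1, Mmp20 14.4 and Mmp7 6.79, all dim on every array. Mmp13 and Mmp12 span 4.66 and 3.90 on the log2 scale over the 6 arrays, Mmp3 spans 2.41, Mmp10 1.36 and Mmp8 0.87.

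**Figure D3:**
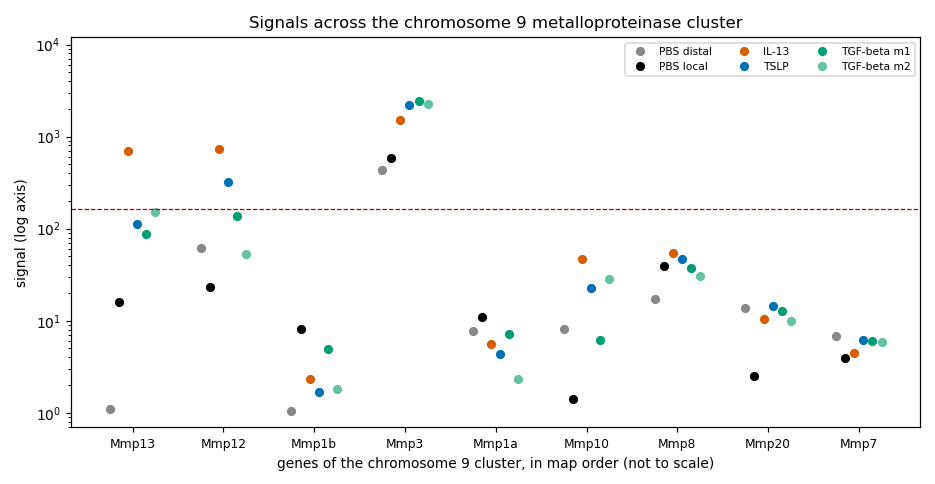
Scaled signals (log axis) on the 6 arrays for genes of the chromosome 9 cluster in map order, coloured by array (m1 and m2 are TGF-beta mouse 1 and mouse 2), with a dashed red line at 165, the median of all signals. Mmp13, Mmp12 and Mmp3 rise above the line on at least 1 array and Mmp1b, Mmp1a, Mmp10, Mmp8, Mmp20 and Mmp7 do not.

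For the 3 genes that spanned at least 2 on the log2 scale, the genes with the most similar profile over the 6 arrays were found by the mean absolute difference of the centred log2 values. For Mmp3 these were Sfrp2 at 0.285, Gzma at 0.296, Aldh1a3 at 0.353, Gzmb at 0.361 and Nox4 at 0.374, with a median over all genes of 0.894. For Mmp12 they were Arg1 at 0.403, Slc15a2 at 0.519, Acod1 at 0.531, Car4 at 0.561 and Il13ra2 at 0.579, with a median of 1.18. For Mmp13 they were Car4 at 0.398, Cxcl2 at 0.677, S100a8 at 0.679, Acod1 at 0.690 and Slpi at 0.698, with a median of 1.19. Among the metalloproteinases, Mmp3 was nearest to Mmp11 at 0.507, and Mmp12 and Mmp13 differed by 0.723. The 6 arrays in 5 groups give a coarse profile, and these values are descriptions.

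Timp1, the secreted inhibitor that is often made together with metalloproteinases, had a signal of 1473 in PBS local, 255 in PBS distal, 3579 with IL-13, 2767 with TSLP, 3021 in TGF-beta mouse 1 and 2210.1 in mouse 2. It was above PBS local on all 4 cytokine arrays, by 1.26 with IL-13, 0.90 with TSLP, 1.02 in mouse 1 and 0.58 in mouse 2, while the difference of PBS distal was -2.41. Timp3, which binds to the matrix, went the other way: its brightest probe set differed from PBS local by -0.40, -0.51, -0.85 and -0.72 on those 4 arrays and by 0.27 in PBS distal, and the other 3 Timp3 probe sets had the same signs. The probe set that stands for Timp2 differed by 0.29 with IL-13 and by 0.30 and 0.13 in the TGF-beta mice, but the Timp2 probe sets did not share one sign. Of the 11 inhibitor genes listed, 7 were bright enough to be tested against IL-13. There 1 was 2-fold higher (Timp1), beside 1.12% of all genes, and the median was 0.29. Against TSLP and TGF-beta 0 of 7 were 2-fold apart, with medians of 0.09 and 0.08.

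**Figure D4:**
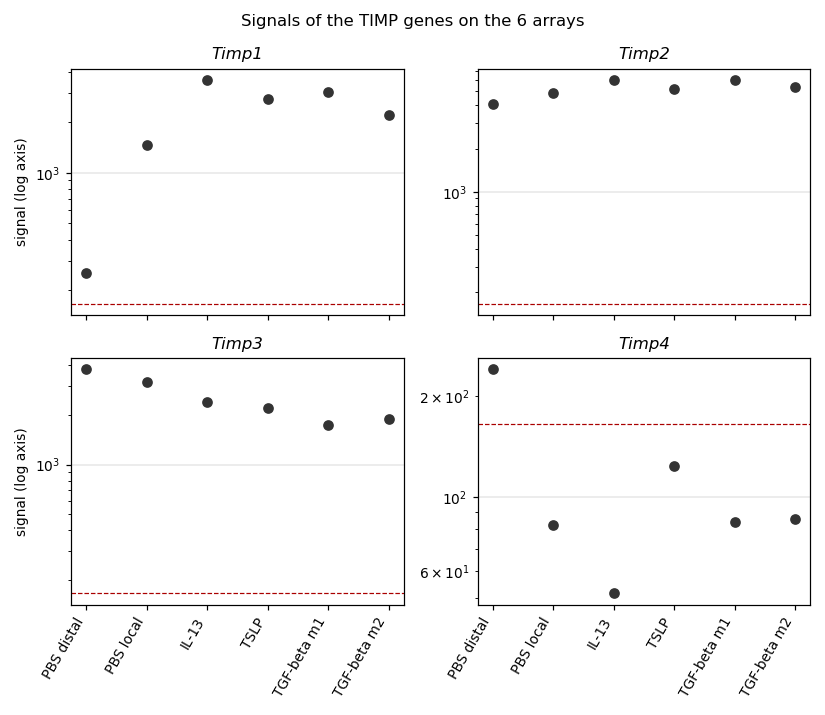
Scaled signals (log axis) of Timp1, Timp2, Timp3 and Timp4 on the 6 arrays, as 1 point per array for the probe set that stands for the gene, with m1 and m2 for TGF-beta mouse 1 and mouse 2 and a dashed red line at 165, the median of all signals. Timp1 is lowest in PBS distal at 255 and highest with IL-13 at 3579, while Timp3 and Timp4 are highest in PBS distal, at 3801 and 241.

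Of 17 listed genes for precursor activation and the plasminogen system, 15 were measured. With IL-13 2 of 8 tested were 2-fold above PBS local, beside 1.12% of all genes. They were Serpinb2, an inhibitor of plasminogen activators, by 1.20 and Pcsk5, a convertase of the furin family, by 1.01. Against TSLP and TGF-beta 0 of 7 were 2-fold apart. Plaur, the urokinase receptor, differed by 0.80 with IL-13, 0.39 with TSLP and -1.27 in PBS distal, and Plau, urokinase, by 0.34 and -0.21 with IL-13 and TSLP and by 0.55 in PBS distal. Furin itself differed by -0.30 with IL-13, 0.25 with TSLP and 0.00 and -0.08 in the mice. None of the 13 tested of 15 listed matrix substrate genes, among them collagens, elastin and proteoglycans, was 2-fold apart from PBS local on a cytokine array. Of the other 14 metalloproteinase genes listed, 9 were measured and 2 passed the brightness rule, Mmp19 and Mmp23, and neither was 2-fold apart from PBS local with a cytokine.

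Of 12 listed cytokines and mediators known to induce metalloproteinase genes, 10 were measured. Il6 was 1.92 above PBS local with IL-13 and 2.29 with TSLP, against 0.49 and 0.16 in the TGF-beta mice. Il1b was 1.38 above it with IL-13 and 0.82 with TSLP, and it differed by -0.48 and -0.27 in the mice. Ptgs2, the inducible prostaglandin synthase, was 1.73 above it with IL-13 and 1.33 with TSLP, where its signal lay just under the brightness rule and so outside the count. These 3 of the 5 tested were 2-fold higher with IL-13, 1 of 4 with TSLP (Il6) and 0 of 3 with TGF-beta. The shares of all genes at least 2-fold higher were 1.12%, 0.998% and 0.181%. Il6 with IL-13 and with TSLP, and Ptgs2 with IL-13, passed the brightness rule only through the cytokine arrays, where they were high. Tnf was dim, on every array. Tgfb1 differed from PBS local by 0.08 with IL-13 and -0.11 and 0.11 in the mice.

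Among the 15 measured genes of the AP-1, ETS and related factors, 1 of 11 tested was 2-fold higher with IL-13, Fosb, by 1.51. With TSLP or in both TGF-beta mice 0 of 10 were. The shares of all genes were 1.12% with IL-13, 0.998% with TSLP and 0.181% with TGF-beta. Fosb passed the brightness rule only through the IL-13 array, where it was high. Fos was 0.81 above PBS local with IL-13, 0.78 with TSLP, and differed by -1.12 and -0.62 in the mice. The part of these factors in the metalloproteinase values was not tested. Jun differed by 0.06 and 0.09 with IL-13 and TSLP and by -0.18 and -0.07 in the mice, and Fosl1, dim on every array, by 1.69, 1.17, 0.90 and 0.24.

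Markers of the cells that make metalloproteinases were read on the same arrays. Macrophage markers, 12 of 12 measured, had a summed signal of 36714 in PBS local, 28558 in PBS distal, 44391 with IL-13, 37024 with TSLP, 42641 in TGF-beta mouse 1 and 37404 in mouse 2. Of 11 tested, 1 was 2-fold higher with IL-13 (Cd14, by 1.32), beside 1.12% of all genes, and 0 of 12 with TSLP or TGF-beta. Adgre1, the F4/80 antigen, differed by 0.17 with IL-13 and 0.32 with TSLP. Neutrophil markers apart from Mmp8 and Mmp9, 9 of 10 measured, summed to 4874 in PBS local, 903 in PBS distal, 11201 with IL-13, 6443 with TSLP, 7377 in mouse 1 and 7066 in mouse 2. S100a8 and S100a9 made up most of each sum, so the sums mostly follow these 2 genes. They were 1.49 and 1.28 above PBS local with IL-13. No other marker of the 5 tested was 2-fold higher there, beside 1.12% of all genes. With TSLP and in both TGF-beta mice 0 of 5 were 2-fold higher. The granule genes Mpo and Elane were dim on all arrays, and Ngp differed by -0.50 with IL-13. The part of the macrophage and neutrophil markers in the metalloproteinase values was not tested.

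Fibroblast markers, 10 of 10 measured, summed to 75322 in PBS local, 62112 in PBS distal, 81068 with IL-13, 62973 with TSLP, 91902 in TGF-beta mouse 1 and 76718 in mouse 2, and 0 of 10 were 2-fold apart from PBS local with any cytokine. The pancreatic transcripts were 2-fold above PBS local for 10 of 10 genes with IL-13 and with TSLP, beside 1.12% and 0.998% of all genes. In TGF-beta mouse 1 their sum was below that of PBS local, and Mmp3 differed from PBS local by 1.99, Mmp12 by 1.71 and Mmp13 by 1.40 there. In mouse 2, with the higher pancreatic and hair follicle sums, the same genes differed by 1.88, 0.66 and 2.04. Mmp12 and Mmp13 were dim in PBS local and in both mice. The part of the pancreatic and hair follicle transcripts in these values was not tested.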

How the data were processed

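Skin RNA was measured on single-colour Affymetrix arrays (6 arrays, 5 groups). The deposited values are linear intensity signals, which the authors computed by MAS5, per the submitters' processing notes. Its version was not given in the sources used here. All array means without the lowest and highest 2% of values were set equal, log2 was taken after adding 27.4 (the 25th percentile), and probe sets with no compared array at 165 or above were left out of the fit. Probe sets were named from the platform annotation: 20380 name 1 gene, 691 several and 1555 none. Symbols of 20364 were matched by gene number to RefSeq GRCm38.p6.

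limma 3.58.1 in R 4.3.3 was fitted to all probe sets past that filter over the 5 groups with an intensity trend and Benjamini-Hochberg adjustment at 0.05. Only the TGF-beta pair gives a spread (1 residual degree of freedom), and whether those mice were kept or handled apart is not stated. Counts of 2-fold genes used a log2 difference of 1 or more, without a test. The number of arrays limits the precision, and there are no counts.

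The members, gene lists and tests were chosen with earlier results of these data known. The genes named are all listed metalloproteinases, list members past 2-fold (up to 3 each way), a set of fixed inhibitors, activators, inducers and factors, and the 5 nearest profiles. Named outside this rule, after their values were seen, are Furin, Fosl1, Krt5, Krt14, Elane, Mpo, Ngp, Timp4, Mmp19, Mmp23 and the cluster neighbours. Alternatives were the offset, quantile normalization, the filter, 1 probe set a gene and fits without trend.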

Additional observations from a re-analysis of the deposited data

How the results depend on the processing

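For TGF-beta against PBS local, 2 metalloproteinase genes were at least 2-fold higher in both mice. This became 4 with the offset at the 10th percentile (Mmp3, Mmp11, Mmp12 and Mmp13), 1 with the offset at the median and 1 when only genes above the brightness rule were counted (Mmp3 in both), 0 by limma, and 4 against PBS distal, an alternative added after the data were seen. It was 3 without mouse 1 (Mmp3, Mmp11 and Mmp13) and 3 without mouse 2 (Mmp3, Mmp12 and Mmp13). For IL-13 the count of 5 became 3 with the offset at the median and 0 by limma. It was 4 with a floor at the 25th percentile of signals and 4 when only genes above the brightness rule were counted. For TSLP the count of 3 became 4 with the offset at the 10th percentile, which added Mmp10, and 0 by limma. It was 2 with the offset at the median and 2 with only genes above the brightness rule (Mmp3 and Mmp12 in both). For IL-13 over TSLP the count of 2 became 1 with the offset at the median (Mmp13) and 0 by limma. For PBS distal below PBS local it went from 0 to 1 with the offset at the 10th percentile (Mmp13). Mmp3 in TGF-beta against PBS distal fell short of the limma threshold with the offset at the median (2.06, adjusted p 0.0838), and at 2.36 without the filter (0.241), with 1 probe set a gene (0.0662) and without the intensity trend (0.133). limma called 0 probe sets under every alternative run for TGF-beta against PBS local, IL-13 and TSLP. With quantile normalization it called 2 for IL-13 and 1 for TSLP against PBS local, 7 higher and 74 lower for PBS distal against PBS local, and 213 higher and 78 lower for TGF-beta against PBS distal, Mmp3 and Mmp14 among them. Mmp14 was called there by its brighter probe set only. Of 174 single-gene differences under an alternative, 58 moved by more than the spread of the mice, and 56 of these kept their sign. The other 2, Mmp10 with TSLP and Mmp13 in PBS distal, became 0 with a floor at the 25th percentile of signals. Of the called differences, 0 changed sign. Among the moves was that of genes dim in PBS local: with the offset at the median Mmp13 with IL-13 went from 4.06 to 2.24 and Mmp12 with IL-13 from 3.90 to 2.25. No paired analysis was possible because only the TGF-beta arrays carry mouse numbers.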
